A study of Mus musculus with 6 samples.

Results

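The 47 genes described here are genes of DNA replication and mitosis, the transcripts that dividing cells need to copy their chromosomes and to part them. They were taken as a list by name and by role. Their values did not enter the rule, but earlier results of these data were known when the list was made. In all, 23 act around the G1/S transition and in S phase and 24 in G2 and mitosis, and they fell into 9 roles. A gene was read by its brightest probe set, the one with the highest mean log2 level over all arrays among the probe sets annotated to exactly 1 gene. Of the 47 genes, 46 had such a probe set and 45 passed the filter on level, a mean log2 value of at least 4.7, out of 14162 genes that passed it and 18193 genes on the array. Ccnb1, which encodes cyclin B1, had no probe set annotated to it alone. Tyms, which encodes thymidylate synthase, had log2 levels of 4.4, 4.4 and 4.1 in the vestibule and 4.0, 4.5 and 4.3 in the cochlea, and so stayed below the filter.

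Vestibular sensory epithelia were compared with cochlear sensory epithelia, both of C3H mice of wild type genotype, postnatal day 2, on 3 Affymetrix mouse arrays for each tissue. The vestibular tissue joined saccule, utricle, lateral cristae and anterior cristae. Both tissues kept the mesenchyme beneath them and the neurons attached to them. The paper describes 3 pools for each tissue, of 10 to 12 ears, so every array read mixed cell types from several animals. The sources used here do not say which pool went onto which array. The p-values therefore measure the spread between arrays, and part of that spread may be technical.

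A cell about to copy its DNA first licenses origins, by loading the MCM helicase with the help of Cdc6 and Cdt1, and then fires them and builds the new strands with polymerases held by the sliding clamp PCNA. Cyclin B and Cdk1 then drive it into mitosis, where Aurora and Polo kinases, kinesins and centromere proteins pull the chromosomes apart and the anaphase-promoting complex ends the process. Many of these genes are transcribed in waves, those of S phase through E2F factors and those of mitosis through promoters that carry CCAAT boxes and a cell cycle homology region (CHR). In mice the sensory precursors of the cochlea leave the cell cycle before birth, whereas the utricle still adds sensory cells in the first days of life, and mesenchyme, glia and vessels grow in both organs.

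The letters of these motifs were looked up in the promoters of the members. RefSeq promoter windows of build GRCm38.p6, running from 250 bases before the transcription start to 50 bases after it, were found for 38 of the 47 genes. Foxm1, Ccne2, Gmnn, Aurkb, Gins1, Kif20a, Tpx2, Ccna2 and Mcm4 were not matched. Motifs were searched on both strands, and hits were allowed to overlap. The CHR was searched as the letters TTTGAA and the CCAAT box by its name. For E2F the letters TTCCCGC were searched, and beside them the variant TTCGCGC, another with the spelling TTGCCGC and a last one with the spelling TTGGCGC. The CHR letters stood in 13 of 19 G2/M promoters (68.4%), in 1 of 19 G1/S promoters (5.26%, Mcm2) and in 18.1% of all 27025 promoters. The E2F letters ran the other way, with 3 of 19 G2/M promoters (15.8%), 12 of 19 G1/S promoters (63.2%) and 9.69% of all promoters. CCAAT stood in 16 of 19 G2/M promoters (84.2%), 12 of 19 G1/S promoters (63.2%) and 37.9% of all promoters. A match is a description of the letters and not a measured site.

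Windows of 3 genes of each class are shown, each 131 bases up to the transcription start and written 5′ to 3′ along the gene, because the levels on each array are given by class further on. Capitals mark the motif letters on either strand. Cdk1, the kinase that starts mitosis, has its window at chr10:69352913-69353043 on the minus strand, Ccnb2, which encodes cyclin B2, at chr9:70421555-70421685 on the minus strand, and Cdc20, an activator of the anaphase-promoting complex, at chr4:118437344-118437474 on the minus strand.
Cdk1: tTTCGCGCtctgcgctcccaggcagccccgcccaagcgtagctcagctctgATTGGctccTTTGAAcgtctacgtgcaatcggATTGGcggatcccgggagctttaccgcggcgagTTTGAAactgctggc
Ccnb2: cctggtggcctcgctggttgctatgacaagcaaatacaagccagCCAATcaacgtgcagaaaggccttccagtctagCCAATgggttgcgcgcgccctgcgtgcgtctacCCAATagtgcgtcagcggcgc
Cdc20: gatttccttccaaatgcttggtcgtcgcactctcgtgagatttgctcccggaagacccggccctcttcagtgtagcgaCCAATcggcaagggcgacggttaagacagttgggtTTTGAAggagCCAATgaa
Cdk1 carried the CHR letters starting 71 and 15 bases before the start site, between and after a pair of CCAAT boxes that read as ATTGG here, and an E2F match at the upstream end. Ccnb2 carried 3 CCAAT boxes at 87, 54 and 21 bases before the start, and its CHR letters lay outside the part shown, 167 bases before the start and 5 bases after it. Cdc20 carried 1 CHR match, 18 bases before the start, between its CCAAT boxes.

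For the G1/S class, Pola1, which encodes the catalytic subunit of DNA polymerase alpha, has its window at chrX:93632156-93632286 on the minus strand, Prim1, which encodes the primase that works with it, at chr10:128015084-128015214 on the plus strand, and Mcm6, a subunit of the helicase, at chr1:128359706-128359836 on the minus strand.
Pola1: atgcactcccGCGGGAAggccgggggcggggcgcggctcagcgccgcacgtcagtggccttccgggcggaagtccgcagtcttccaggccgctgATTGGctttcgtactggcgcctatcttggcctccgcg
Prim1: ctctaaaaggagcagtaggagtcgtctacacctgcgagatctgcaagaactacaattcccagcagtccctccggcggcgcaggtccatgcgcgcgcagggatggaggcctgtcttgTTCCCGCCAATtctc
Mcm6: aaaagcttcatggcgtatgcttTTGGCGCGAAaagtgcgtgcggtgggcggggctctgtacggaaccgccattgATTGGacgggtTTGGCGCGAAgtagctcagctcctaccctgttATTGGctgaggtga
None of these 3 windows held the CHR letters. In Prim1 the E2F letters and the CCAAT box overlapped, 15 and 9 bases before the start. In Mcm6 each of the 2 E2F stretches matched on both strands.

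Between the tissues the genes of replication and mitosis differed little. Of the 45 genes tested, 1 was called higher in the vestibule, Kif23, and 2 were called lower, Pola1 and Cenpe, and 42 were not called, where a call took a fold of 1.3 or more and a limma adjusted p under 0.1. Over all genes tested, 15.1% were called higher and 7.97% lower, 23.1% either way. The 3 vestibular arrays all lay above the 3 cochlear arrays for 1 member and all below them for 2, whereas among all genes tested 19.9% lay all above and 12.4% all below, 32.3% in all. The differences of the members, vestibule minus cochlea on the log2 scale, ran between -0.53 and 0.57 with a median of 0.07, beside a median of 0.03 for all genes. By sign 27 were positive, 17 negative and 1 was 0, but without cochlea replicate 1 the count was 19 positive and 24 negative, with a median of -0.07. In bulk tissue, fewer dividing cells and less RNA per dividing cell cannot be told apart.

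The median size of a difference was the same in the members as in all genes, and few members lay at the far end. The median absolute log2 difference was 0.20 in both. A difference above 0.5 was found for 2 of 45 members (4.44%), Ccnb2 and Pola1, and for 19.0% of all genes tested. For 44 of the 45 members the 95% confidence interval lay within a 2-fold change either way, Ccnb2 being the exception with an upper bound of 1.08. Among all genes tested the interval lay within these bounds for 12054 of 14162. The members also varied more between arrays of 1 tissue than all genes did. Their median SD was 0.20 in the vestibule and 0.26 in the cochlea, against 0.12 and 0.17 for all genes. The median standard error of a difference was 0.17 for members and 0.13 for all genes. The sets were not matched on level, with a median log2 level of 7.05 for members and array medians of 7.9 to 8.1 for all genes. At an unadjusted limma p under 0.05 there were 5 of the 45 members, 3 higher and 2 lower. Over all 14162 genes tested there were 4444, 2773 higher and 1671 lower. The smallest p that an exact permutation test of 3 arrays against 3 can give is 0.1.

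**Figure D1:**
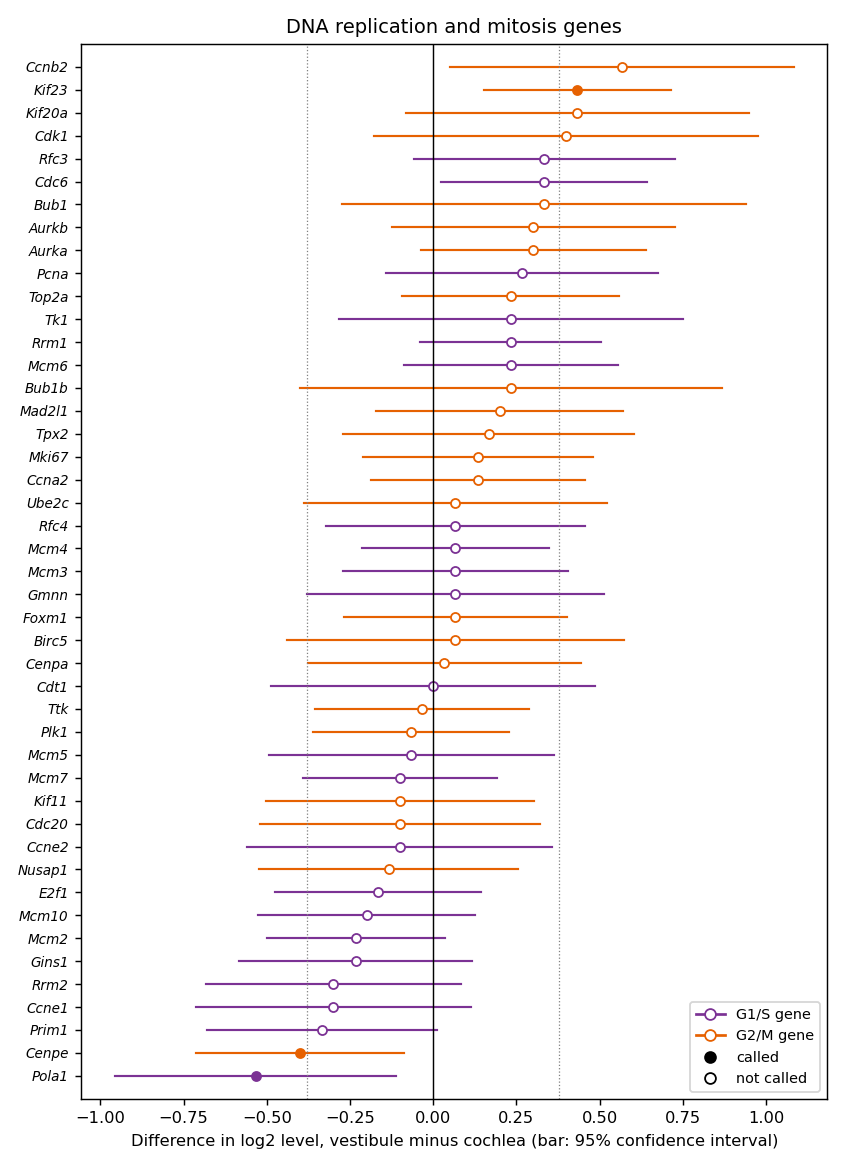
Difference in log2 level, vestibule minus cochlea, for the 45 members tested (x axis), 1 row per gene; bars are 95% confidence intervals from limma, dotted lines mark a fold of 1.3, filled points are called genes and colours give the phase. Most intervals cross 0, and Kif23, Cenpe and Pola1 are the filled points.

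**Figure D2:**
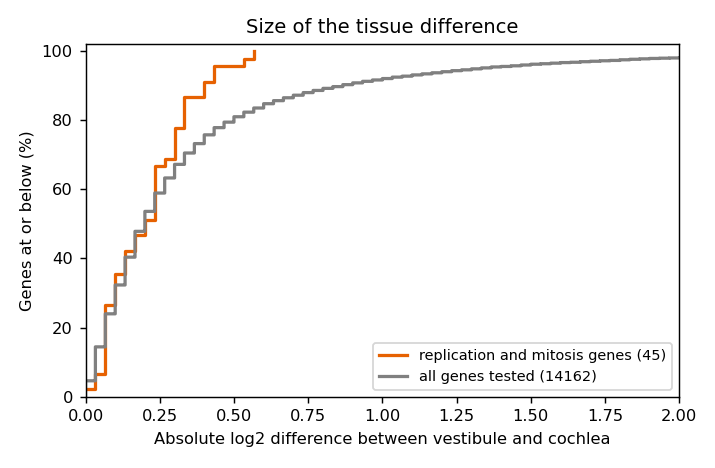
Share of genes (y axis, percent) whose absolute log2 difference between vestibule and cochlea is at or below the value on the x axis, for the 45 members and for all 14162 genes tested. The curves run together at small differences, and the members' curve ends at 0.57, where the curve of all genes still has a long tail; the axis stops at 2.

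The genes that license origins and open the helix showed no call among 11. Their log2 differences ran between -0.23 and 0.33 with a median of 0.00, and every 95% interval lay within a 2-fold change. Cdc6, which loads the helicase onto origins, had the largest difference in this group. Cdc6 had log2 levels of 5.1, 5.3 and 5.5 in the vestibule and 4.9, 4.9 and 5.1 in the cochlea, so that the lowest vestibular array equalled the highest cochlear one. Its difference of 0.33 (standard error 0.14) did not pass the threshold (limma adjusted p = 0.146). Cdt1, the partner of Cdc6, read 8.0, 8.4 and 7.9 in the vestibule and 8.1, 7.7 and 8.5 in the cochlea, a difference of 0.00 with an interval of -0.49 to 0.49. Among the subunits of the MCM2-7 ring, Mcm2 stood at -0.23 and Mcm6 at 0.23, and Mcm3, Mcm4, Mcm5 and Mcm7 lay between -0.10 and 0.07. Gins1, a part of the active helicase, stood at -0.23, Mcm10, which helps to activate it, at -0.20, and Gmnn, which encodes the licensing inhibitor geminin, at 0.07.

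DNA polymerase alpha was the one replication enzyme among the members with a call. Pola1 had log2 levels of 7.1, 7.3 and 7.3 in the vestibule and 7.6, 7.5 and 8.2 in the cochlea. All vestibular arrays lay below all cochlear ones, and cochlea replicate 3 stood apart above the others. The difference was -0.53 (standard error 0.19, limma adjusted p = 0.0942), a vestibular level 0.69 times the cochlear one. The call was lost without vestibule replicate 1 (-0.47), vestibule replicate 2 or 3 (-0.57 each), cochlea replicate 1 (-0.62) or cochlea replicate 3 (-0.32), and it was kept without cochlea replicate 2. With the mean over its probe sets Pola1 stood at -0.25 and was not called. That mean took in its other probe set, which lay below the filter at 3.6 in the vestibule and 3.57 in the cochlea.

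Prim1, whose product makes the RNA primer for the same enzyme, had levels of 8.3, 8.5 and 8.7 in the vestibule and 8.6, 9.0 and 8.9 in the cochlea. The arrays overlapped, and the difference of -0.33 (standard error 0.15) was not called (limma adjusted p = 0.193). A second probe set of Prim1 read 8.0, 8.2 and 8.2 in the vestibule and 8.5, 8.4 and 8.9 in the cochlea, and was called lower at -0.47. The other subunits of the same complex, read from the list of further replication genes, were not called, with Pola2 at 0.07 and Prim2 at 0.27. Among the clamp and clamp loader genes, Pcna, the sliding clamp itself, had levels of 11.2, 11.4 and 11.6 in the vestibule and 11.0, 11.5 and 10.9 in the cochlea and a difference of 0.27. Rfc3 stood at 0.33, and Rfc4 read 6.5, 7.0 and 6.9 in the vestibule and 6.6, 7.0 and 6.6 in the cochlea, a difference of 0.07. The array values of Prim1 and Pcna, and those of Cdk1 and Bub1b further on, are given by a choice made after they were seen.

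Nucleotide supply genes showed no call among 3 tested. Rrm2, the regulated subunit of ribonucleotide reductase, read 6.8, 6.8 and 6.4 in the vestibule and 6.7, 7.0 and 7.2 in the cochlea, a difference of -0.30. Its large subunit Rrm1 read 8.9, 9.1 and 9.2 in the vestibule and 8.8, 8.8 and 8.9 in the cochlea, a difference of 0.23, and Tk1, a thymidine kinase, also stood at 0.23 with levels of 6.5, 7.1 and 7.0 in the vestibule and 6.2, 6.7 and 7.0 in the cochlea. The arrays of all 3 genes overlapped or met between the tissues. The other tested probe sets of Rrm2 had the opposite sign, at 0.10 and 0.37, and that of Rrm1 stood at 0.80, with none called.

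The cyclin genes and Cdk1 held the largest difference of all members and no call among 5. Ccnb2, which encodes a cyclin that activates Cdk1, had log2 levels of 7.0, 7.6 and 7.4 in the vestibule and 6.3, 7.1 and 6.9 in the cochlea. Replicate 1 was the lowest array of both tissues, and vestibule replicate 1 fell within the cochlear range. The difference was 0.57 (standard error 0.23, interval 0.05 to 1.08, limma adjusted p = 0.139). Cdk1 read 8.2, 8.4 and 8.6 in the vestibule and 7.5, 8.6 and 7.9 in the cochlea, with the cochlear arrays spanning the vestibular ones, and its difference of 0.40 had an interval of -0.18 to 0.98. Of the cyclins E, which act with Cdk2 at the entry to S phase, Ccne1 stood at -0.30 and Ccne2 at -0.10. Ccne2 read 4.9, 5.5 and 5.4 in the vestibule and 5.1, 5.3 and 5.7 in the cochlea, near the filter on level. Ccna2, which encodes the cyclin A of S and G2 phase, stood at 0.13.

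The kinases of mitosis and the spindle checkpoint were not called in any of 7 cases, with 5 positive and 2 negative differences and a median of 0.23. Bub1, a checkpoint kinase of the kinetochore, read 5.7, 6.0 and 6.4 in the vestibule and 5.4, 5.4 and 6.3 in the cochlea, a difference of 0.33 with an interval of -0.27 to 0.94. The Aurora kinase genes Aurka and Aurkb both stood at 0.30, Bub1b at 0.23 and Mad2l1 at 0.20. Plk1, the Polo kinase, stood at -0.07. Ttk, another checkpoint kinase, read 5.7 on every vestibular array and 5.5, 5.7 and 6.0 in the cochlea, a difference of -0.03.

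Genes of the centromere, the spindle and cytokinesis were called in opposite directions, 1 higher and 1 lower of 8. Kif23, which encodes a kinesin of the central spindle that cytokinesis needs, read 7.3, 7.4 and 7.5 in the vestibule and 6.8, 7.0 and 7.1 in the cochlea. Every vestibular array lay above every cochlear one. The difference was 0.43 (standard error 0.12, limma adjusted p = 0.046), a fold of 1.35. A further probe set of Kif23, below the filter, read 3.53 on average in the vestibule and 3.93 in the cochlea, and averaging all its probe sets put the gene at 0.02. The call was also lost without vestibule replicate 2 (0.43), vestibule replicate 3 (0.38) or cochlea replicate 1 (0.35).

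Cenpe, which encodes a kinesin that holds chromosomes to spindle microtubules, read 6.1, 6.5 and 6.5 in the vestibule and 6.8, 6.7 and 6.8 in the cochlea. Every vestibular array lay below every cochlear one, vestibule replicate 1 most of all. The difference was -0.40 (standard error 0.14, limma adjusted p = 0.0904), and the call was lost when any 1 of the 6 arrays was left out, with values of -0.47 to -0.27. It was also lost with the mean over its probe sets (-0.25). That mean took in its other probe set, which lay below the filter at 3.87 in the vestibule and 3.97 in the cochlea. Kif20a, a kinesin of late mitosis, had the same difference as Kif23 but no call, with levels of 5.4, 6.3 and 6.2 in the vestibule and 5.5, 5.4 and 5.7 in the cochlea. Its vestibule replicate 1 lay with the cochlear arrays and the other 2 stood above them. Without vestibule replicate 1 its difference was 0.72 and it was called. Cenpa, the histone variant of the centromere, read 7.6, 8.0 and 7.8 in the vestibule and 7.4, 8.0 and 7.9 in the cochlea, a difference of 0.03. Birc5, Nusap1, Kif11 and Tpx2 lay between -0.13 and 0.17.

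The remaining members showed no call. Of the genes of the anaphase-promoting complex, Cdc20 read 7.9, 8.1 and 7.9 in the vestibule and 7.9, 7.8 and 8.5 in the cochlea, a difference of -0.10, and Ube2c, its ubiquitin-conjugating enzyme, read 5.9, 6.2 and 6.2 in the vestibule and 5.6, 6.4 and 6.1 in the cochlea, a difference of 0.07. E2f1, a transcription factor of S phase entry, read 5.7, 5.9 and 5.6 in the vestibule and 6.1, 5.8 and 5.8 in the cochlea, a difference of -0.17. Foxm1, which drives the genes of mitosis, read 6.6, 6.5 and 6.6 in the vestibule and 6.2, 6.7 and 6.6 in the cochlea, a difference of 0.07. In all 4 genes the arrays of the tissues overlapped.

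The antigen Ki-67 and topoisomerase II alpha are the usual markers of dividing cells. Mki67 read 8.8, 9.0 and 9.2 in the vestibule and 8.7, 8.8 and 9.1 in the cochlea, a difference of 0.13 with an interval of -0.21 to 0.48. Top2a read 8.4, 8.6 and 8.7 in the vestibule and 8.1, 8.4 and 8.5 in the cochlea, a difference of 0.23 with an interval of -0.09 to 0.56. Both genes were therefore read well above the filter in both tissues, and neither was called.

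**Figure D3:**
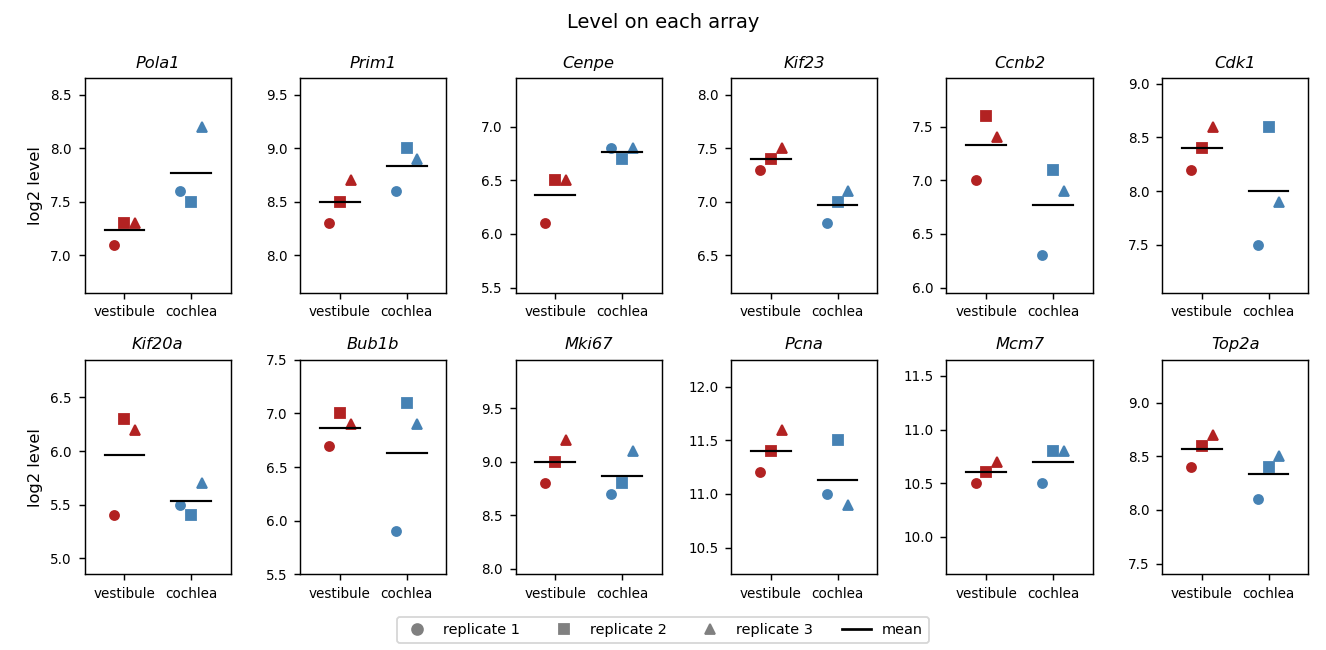
Log2 level (y axes, each panel with a range of its own) of 12 members on each array, vestibule left and cochlea right; points are arrays, symbols give the replicate number and black lines are group means of 3 arrays. The tissues separate for Pola1, Cenpe and Kif23 and overlap or meet in the other panels, and cochlea replicate 1 is low for Ccnb2, Cdk1 and Bub1b.

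Replicate 1 of each tissue was low for many members at once. Cochlea replicate 1 was alone the lowest of the 6 arrays for 22 of 45 members (48.9%), against 10.9% of all genes tested. Among G2/M members this was so for 17 of 23 (73.9%) and among G1/S members for 5 of 22 (22.7%). Bub1b, a checkpoint protein, was the clearest case, with 6.7, 7.0 and 6.9 in the vestibule and 5.9, 7.1 and 6.9 in the cochlea. Vestibule replicate 1 was alone the lowest of the 6 arrays for 8 of 45 members (17.8%), against 10.2% of all genes tested. Within its own tissue it lay below both other vestibular arrays for 36 of 45 members, by a median of 0.30 against their mean. For this last measure no share over all genes was taken.

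By phase, the mean deviation of the G2/M members from each gene's mean over all arrays was -0.12, 0.17 and 0.16 in the vestibule and -0.35, 0.03 and 0.11 in the cochlea. That of the G1/S members was -0.17, 0.07 and 0.06 in the vestibule and -0.15, 0.06 and 0.14 in the cochlea. The G2/M genes were thus lowest in cochlea replicate 1, and the G1/S genes were about equally low in replicate 1 of both tissues. All genes tested stayed between -0.07 and 0.05 on each array.

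The balance of signs among G2/M members moved with the arrays used. With all arrays, 17 of 23 G2/M members were positive and 6 negative, with a median difference of 0.13. With each array centred on its median 16 were positive (median 0.10), and after a second quantile normalization 16 were positive (median 0.07). Without cochlea replicate 1, 12 were positive and 11 negative, with a median of 0.03, and without cochlea replicate 3, 20 were positive and 3 negative, with a median of 0.22. The median was 0.25 without vestibule replicate 1, 0.05 without vestibule replicate 3 and 0.26 with array weights, where 21 were positive. Of the 22 G1/S members 10 were positive and 11 negative, with a median of -0.03, and 7 and 13 with a median of -0.11 without cochlea replicate 1. Whether the 2 classes differed from each other was not tested.

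**Figure D4:**
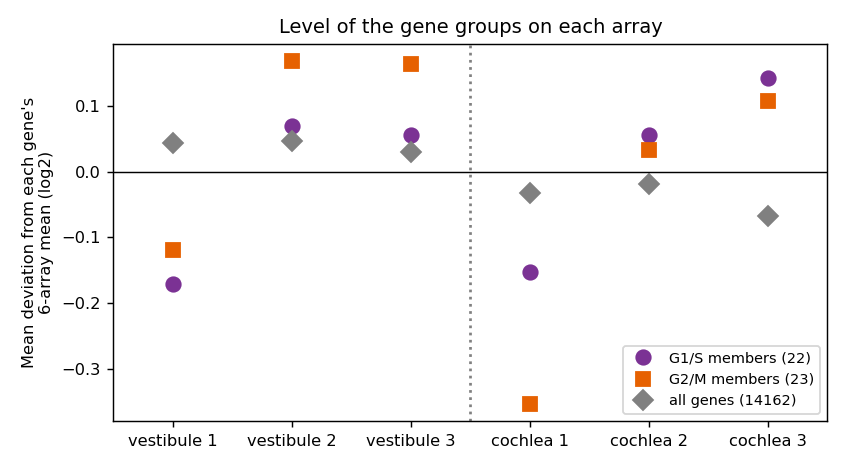
Mean deviation of log2 level from each gene's mean over the 6 arrays (y axis), per array, for 22 G1/S members, 23 G2/M members and all 14162 genes tested. The G2/M members reach -0.35 in cochlea replicate 1, both classes are below 0 in replicate 1 of the vestibule, and all genes stay near 0.

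Further genes of the same processes were read from lists made by name. Of 40 other replication genes 37 were tested, with a median difference of -0.03. By limma 1 was called higher and 0 lower, beside 15.1% higher and 7.97% lower over all genes tested. At an unadjusted limma p under 0.05 there were 2 higher and 1 lower, beside 2773 higher and 1671 lower of all 14162 genes. The called gene was Pole, which encodes the catalytic subunit of DNA polymerase epsilon, with levels of 8.8, 8.7 and 8.9 in the vestibule and 8.6, 8.1 and 8.2 in the cochlea. Its arrays did not overlap, and its difference was 0.50 (limma adjusted p = 0.0555). The call of Pole was lost without cochlea replicate 2 (0.40), cochlea replicate 3 (0.45) or any of the vestibular arrays (0.45 to 0.55).

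Of 56 other mitosis genes 55 were tested, with Cenph below the filter, and 7 were called higher and 1 lower, with a median difference of 0.00, beside 15.1% higher and 7.97% lower over all genes. A difference above 0.5 was found for 6 of the 55 (10.9%), against 19.0% of all genes tested. The kinase gene Nek2, which acts in the separation of centrosomes, had levels of 9.5, 9.2 and 9.3 in the vestibule and 5.9, 6.2 and 6.2 in the cochlea. The tissues lay far apart on every array, and the difference of 3.23 (standard error 0.14, limma adjusted p = 2.29e-06) was 9.4-fold. A second probe set of Nek2 stood at 1.83 and was called too.

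Bub3, a partner of Bub1 and Bub1b at the kinetochore, read 12.6, 12.5 and 12.6 in the vestibule and 11.0, 11.4 and 11.2 in the cochlea. Its difference was 1.37 (limma adjusted p = 1.58e-04), and its other probe sets stood at 1.70 and 1.43, both called. Neither of its partners among the members was called. Ncapd2, a subunit of condensin, read 7.6, 7.6 and 7.5 in the vestibule and 6.6, 7.0 and 6.3 in the cochlea, a difference of 0.93, and Cdc25b, a phosphatase that activates Cdk1, read 8.7, 8.7 and 8.8 in the vestibule and 7.9, 8.2 and 7.8 in the cochlea, a difference of 0.77. All arrays of these genes were higher in the vestibule. Nek2, Bub3, Ncapd2 and Cdc25b kept their calls under each of the 17 alternatives tried. With the mean over probe sets, those below the filter included, Nek2 stood at 1.52 and Ncapd2 at 0.42.

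The product of Kif23 works with that of Racgap1 in centralspindlin, a complex that recruits the product of Ect2 to the division plane. Racgap1 and Ect2 were also called higher. This grouping was not among the planned lists and was made with the values known. Of the 8 members of the centromere, spindle and cytokinesis, 1 was called higher, 1 lower and 6 were not called. Racgap1 read 6.8, 6.9 and 7.1 in the vestibule and 6.3, 6.1 and 6.4 in the cochlea, and Ect2 read 6.2, 6.5 and 6.7 in the vestibule and 5.5, 5.9 and 6.0 in the cochlea. Neither gene's arrays overlapped, and both differences were 0.67 (limma adjusted p = 0.00875 for Racgap1 and 0.0332 for Ect2). A second tested probe set of Racgap1 stood at 0.37 and was not called (limma adjusted p = 0.0564). Ect2 lost its call without vestibule replicate 2 (0.65), vestibule replicate 3 (0.55) or cochlea replicate 1 (0.52). The other called genes, named after their values were seen, were Mybl2, a transcription factor of the mitotic genes, at 0.47, and Smc2, a core subunit of condensin, at -0.47. Ncapd2 and Smc2, which both belong to condensin, were thus called in opposite directions. Smc2 lost its call without vestibule replicate 1 (-0.43), vestibule replicate 2 (-0.38), cochlea replicate 2 (-0.38) or cochlea replicate 3 (-0.48), and Mybl2 without vestibule replicate 1 (0.45), vestibule replicate 3 (0.40), cochlea replicate 1 (0.42) or cochlea replicate 3 (0.42). With the mean over probe sets, those below the filter included, Racgap1 stood at 0.31, Mybl2 at 0.22 and Smc2 at -0.22, and none of these was called. A second tested probe set of Smc2 also stood at -0.47 and was not called (limma adjusted p = 0.136).

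**Figure D5:**
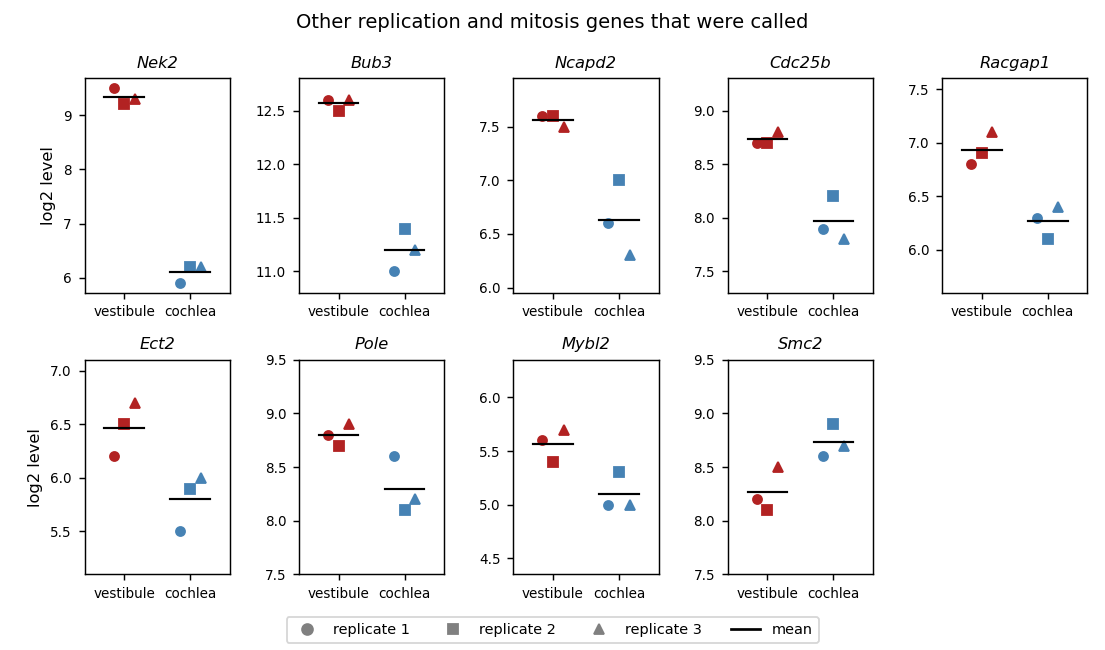
Log2 level (y axes, each panel with a range of its own) on each array of the 9 further replication and mitosis genes that were called, vestibule left and cochlea right; points are arrays, symbols give the replicate number and black lines are group means of 3 arrays. Nek2 and Bub3 are the panels where the tissues lie farthest apart for the spread of their arrays, and Smc2 is the panel with the vestibule below the cochlea.

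Markers of the cell types that the tissue could hold are given by their counts of calls, beside 15.1% of all genes tested called higher and 7.97% lower. Hair cell markers were called higher in 7 of 9 cases, and their mean log2 level was 8.67 to 8.76 on the vestibular arrays and 7.34 to 7.62 on the cochlear ones. All 8 macrophage markers (8.63 to 9.0 in the vestibule, 7.03 to 7.29 in the cochlea) and all 6 melanocyte markers (7.73 to 7.97 in the vestibule, 5.93 to 6.52 in the cochlea) were called higher, as were both red blood cell markers tested. Endothelial markers were called higher in 5 and lower in 1 of 7 cases, mesenchymal ones higher in 6 and lower in 1 of 10, those of cartilage and bone higher in 4 and lower in 1 of 6, and those of Schwann cells higher in 2 and lower in 1 of 6. Neuron markers were called lower in 7 of 8 cases, with 7.53 to 7.74 in the vestibule and 8.89 to 9.20 in the cochlea, and supporting cell markers lower in 3 and higher in 1 of 10. The part of these cell types in the levels of the replication and mitosis genes was not tested.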

How the data were processed

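Transcripts were measured on 6 arrays, 3 of vestibule and 3 of cochlea. The authors amplified the RNA and computed log2 values by RMA with quantile normalization, and the deposited log2 values carry 1 decimal, run from 2.8 to 15 and have a median of 5.6 to 5.7 on each array. The sources used here give no version for RMA or for MAS5, the source of their Present calls. The values were used with no further scaling. Among the 45101 probe sets 64 controls were left out and 34945 were annotated to 1 gene, with symbols updated for 34754 through the Entrez number. Present calls could not be repeated, so probe sets with a mean log2 value of at least 4.7 were kept, 29554 in all.

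Vestibule minus cochlea was fitted on these by lmFit and eBayes (two-sided) of limma 3.58.1 under R 4.3.3, with version 1.17.8 of data.table. The Benjamini-Hochberg adjustment ran over all of them, and a call took a fold of 1.3 or more at an adjusted p under 0.1. Confidence intervals are at 95%, and the number of arrays limits the precision. Array values are printed for called members, for the members with the largest and smallest difference in each role, and for up to 5 called genes of each further list, ties included. Those of Prim1, Pcna, Cdk1 and Bub1b were added after they were seen. The members and the lists were chosen with earlier results of these data known. Hence lists get counts and medians and no test. The fit was tested on simulated data with known differences. Promoters and figures used Python 3.11.15, numpy 2.4.6, pandas 2.3.3 and matplotlib 3.10.9. The alternatives were other filters, scalings, model settings and thresholds, the replicate number as a block, averages over the probe sets of a gene, the exclusion of _x_at and _s_at probe sets, and the exclusion of each array in turn. Averages over probe sets took in those below the filter on level.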

Additional observations from a re-analysis of the deposited data

How the results depend on the processing

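Over 17 alternatives, 34 of the 45 members stayed on their side of the threshold wherever they were tested and 11 did not. No member called in the main fit or in an alternative had the opposite sign in the other. Members called in neither could change sign, and Rrm2 ran between -0.43 and 0.10. Of the 34, Bub1, Ccne2, Cdc6, E2f1, Kif11, Tpx2 and Ttk were not tested at a minimum mean log2 of 6, which they did not reach. The median difference of the members, 0.07, ran between -0.07 (without cochlea replicate 1) and 0.20 (array weights). The count of members called higher, 1, became 0 after a second quantile normalization or with the mean of probe sets, 5 with array weights, and 0 to 5 when 1 array was left out. The count called lower, 2, became 3 after the second quantile normalization (with Prim1 at -0.43), 0 with no filter or at an adjusted p under 0.05, 1 with a trend in eBayes or the mean of probe sets, and 0 to 1 when 1 array was left out. With the replicate number as a block, 2 members were called higher (Ccnb2 at 0.57 and Kif23) and 0 lower, with 2883 and 1795 probe sets called higher and lower, against 3559 and 2182. Deviations of vestibular and cochlear arrays of the same number correlated at 0.22, 0.15 and -4e-04 over the probe sets tested. The third value is not over 0.1 and no source ties the numbers together, so the numbers were not taken as pairs, and whether any arrays share an origin is not known. The 1 other mitosis gene called lower became 0 at an adjusted p under 0.05, with the block and with the mean of probe sets, and was 0 to 1 with 1 array left out. The count of other replication genes called higher, 1, became 0 at an adjusted p under 0.05 and after the second quantile normalization, and was 0 to 2 with 1 array left out, when 0 to 1 was called lower. Pole itself lost its call in 9 of 17 alternatives, with array weights (0.37) and the replicate block (0.50) among them, where another gene was called. With 1 array left out, 2355 to 3884 probe sets were called higher and 1414 to 2796 lower, fewest without vestibule replicate 1. Cenpe lost its call in 11 of 17 alternatives, Pola1 in 9 and Kif23 in 5. The causes were not tested. Array weights called Aurka, Ccnb2, Cdk1 and Rfc3 higher.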

Other observations

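Probe sets of 1 gene did not always give the same direction. Of 103 probe sets of the members 76 were tested, and 23 members had more than 1. For 9 of them, Cdc20, Cenpa, E2f1, Mcm4, Mcm6, Mcm7, Rfc4, Rrm2 and Top2a, the differences of the probe sets had both signs. The widest spans were those of Rrm2, 0.67, and Rrm1, 0.57.

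The suffixes _x_at and _s_at mark probe sets whose probes can match more than 1 transcript. Among the members these 19 probe sets had a median difference of -0.03, and cochlea replicate 3 was the highest array in 9 of them (47.4%). The 57 other probe sets of the members had a median of 0.10, and cochlea replicate 3 was the highest in 10 of them (17.5%). Over all probe sets tested the shares were 28.4% for the marked suffixes and 17.5% for the others. The probe sets that stood for Mcm7, Mcm5, Mcm3, Mcm2, Rrm2, Ccne1, Cdc20 and Aurkb carried such a suffix. So did those of Nek2 and Bub3 among the further genes called. Their tested probe sets without it stood at 1.83 for Nek2 and at 1.70 and 1.43 for Bub3.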
